A study of Mus musculus with 30 samples.

Results

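The globin and erythroid genes described here were Hbb-bs, Hbb-bt, Hba-a1, Hba-a2, Alas2 and Slc4a1, found by their symbols and making up 6 of the 20321 genes in the deposited tables. They were chosen on earlier results of these same libraries, in which Hbb-bs had changed over the 9 time points and was lower at 21 d than at 0 h. Levels over the whole time course and at 21 d are therefore given as a description without a test. The tests at 3 h to 14 d share their mice with those results and are no independent support for Hbb-bs. RNA came from the tip (distal phalanx, P3) of the third hindlimb digit of adult male C57Bl/6 mice, 9 to 10 weeks old per the study's methods, after removal of at most 33% of the phalanx, in 30 libraries. Groups of 3 mice represent the times 0, 3, 6, 12 and 24 h and 3, 14 and 21 d after amputation, and 6 mice represent 7 d. All groups, including 0 h, came from amputated digits, and the sources used here describe no separation of tissues or cells before RNA was extracted.

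In adult mice, hemoglobin is built from alpha chains (Hba-a1, Hba-a2) and beta chains (Hbb-bs, Hbb-bt), each holding a heme group. Alas2 encodes the erythroid form of the rate-limiting enzyme of heme synthesis, and Slc4a1 encodes band 3, the anion exchanger of the red cell membrane. Erythroid precursors in the marrow transcribe these genes under the transcription factors GATA1 and KLF1. The youngest circulating red cells, the reticulocytes, have lost their nucleus and still carry globin RNA, so that globin reads in a tissue can come from marrow precursors or from blood. In bulk RNA, fewer cells of a type and less RNA per cell cannot be told apart.

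The libraries held between 3167625 and 16277816 expected counts (median 6103688), and the 4 globin genes took 0.000525% to 0.0434% of them. A count of 3, taken as the floor of detection, equalled 0.193 to 1.084 CPM (counts scaled to a common library size with TMM factors) depending on the mouse. Title dates put 16 mice in an earlier campaign (July to August) and 14 in a later one (November to January). All mice at 3 h and 12 h were from the earlier campaign and all at 21 d from the later one. At 0 h, 1 of the 3 mice was from the earlier campaign, and 3 of the mice at 7 d were labelled left foot. Mouse 3 at 0 h and mouse 2 at 12 h carry the same mouse tag and date in their titles. The study's methods count 30 mice, 3 per time point and 6 at 7 d, and do not mention this shared tag. Mouse 2 at 0 h stood apart in globin level, and the values without it are given after the tests.

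Each globin gene has a near-identical partner, which matters for how the counts are read. On GRCm38 (GENCODE M21), Hbb-bs (chr7:103826534-103828096, minus strand) and Hbb-bt (chr7:103812524-103813996, minus strand) are neighbours with 3 exons each. Hba-a1 (chr11:32283511-32284465) and Hba-a2 (chr11:32296489-32297298) lie on the plus strand of chromosome 11, also with 3 exons. The coding sequences of Hbb-bs and Hbb-bt, 441 bases each without the stop codon, differed at 1 base, and those of Hba-a2 and Hba-a1, 426 bases each, also at 1 base. Reads were 65 bases long, and a stretch of 65 bases around the differing base, all within exon 3, is shown for each gene. Within the coding sequence, only reads that cover this base differ between the partners. With 2 mismatches allowed, a read from the stretch still matched both partners. The differing base is in capitals.
Hbb-bs: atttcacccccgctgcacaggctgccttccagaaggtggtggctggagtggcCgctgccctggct
Hbb-bt: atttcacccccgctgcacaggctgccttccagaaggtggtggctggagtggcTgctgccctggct
Hba-a2: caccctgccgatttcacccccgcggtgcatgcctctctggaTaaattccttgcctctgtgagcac
Hba-a1: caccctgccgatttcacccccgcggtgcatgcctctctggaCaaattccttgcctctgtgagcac
These stretches lie at chr7:103826680-103826744 and chr7:103812671-103812735 (minus strand) and at chr11:32297119-32297183 and chr11:32284302-32284366 (plus strand). Counted from the A of the start codon, the differences are C417T from Hbb-bs to Hbb-bt and T381C from Hba-a2 to Hba-a1. With the 2 mismatches the authors' alignment allowed, 406 of the 564 possible 65-base reads of the Hbb-bs transcript (72.0%) also matched Hbb-bt, and 474 of the 490 of Hba-a2 (96.7%) also matched Hba-a1. The split of reads within each pair was thus an estimate by RSEM, and pairs were also examined as sums.

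Upstream of the start, 3 of the genes are shown with the letters bound by GATA factors (GATA preceded by A or T and followed by A or G) and the KLF core CACCC, on either strand, in capitals, because these genes are the ones whose fold changes are described most closely. The sequences are the 250 bases before the RefSeq start (GRCm38.p6), at chr7:103827929-103828178 (minus strand), chr11:32296242-32296491 (plus strand) and chrX:150547167-150547416 (plus strand).
Hbb-bs: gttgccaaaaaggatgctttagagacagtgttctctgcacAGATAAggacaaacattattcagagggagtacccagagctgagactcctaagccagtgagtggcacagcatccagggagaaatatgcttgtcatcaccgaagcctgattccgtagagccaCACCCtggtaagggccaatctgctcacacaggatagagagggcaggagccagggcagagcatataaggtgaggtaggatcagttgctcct
Hba-a2: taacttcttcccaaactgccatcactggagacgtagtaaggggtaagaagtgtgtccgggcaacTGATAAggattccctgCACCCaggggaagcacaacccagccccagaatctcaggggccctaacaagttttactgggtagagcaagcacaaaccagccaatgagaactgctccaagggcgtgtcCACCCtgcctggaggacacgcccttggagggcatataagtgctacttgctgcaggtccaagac
Alas2: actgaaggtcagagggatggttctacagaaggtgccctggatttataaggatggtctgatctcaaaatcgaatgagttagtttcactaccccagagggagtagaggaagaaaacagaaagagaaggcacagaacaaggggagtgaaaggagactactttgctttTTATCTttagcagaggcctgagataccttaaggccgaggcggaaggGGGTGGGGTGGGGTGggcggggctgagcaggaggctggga
Each of the 3 windows held 1 GATA match. CACCC was matched once for Hbb-bs, at 2 places for Hba-a2 and at 3 places for Alas2, where the matches lie side by side on the opposite strand. Of the windows not shown, that of Hbb-bt held 0 GATA and 3 CACCC matches, and that of Hba-a1 held 1 and 2. Among 32851 RefSeq promoter windows of the same length, 26.5% held a GATA match and 52.0% a CACCC match. TATAA, found in 22.8% of all windows, was present at 29 to 25 bases before the start of Hbb-bs and at 30 to 26 bases before that of Hba-a2. In the Alas2 window, TATAA matched on both strands at overlapping positions, 208 to 203 bases before the start. Such matches are letters in a window and were not measured as binding sites.

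Hbb-bs, the more abundant beta globin gene, was detected in all 30 mice and was lower than at 0 h at 3 d, 7 d and 14 d. At 0 h its level was 21.0, 220.2 and 62.7 CPM in mice 1, 2 and 3. At 3 h it was 57.7, 31.0 and 10.6 CPM, and at 6 h 30.4, 139 and 33.5 CPM. The 0 h mice were far apart and overlapped the mice at 3 h and 6 h. At 12 h the level was 17.8, 22.8 and 23.1 CPM, and at 24 h 17.5, 11.0 and 30.9 CPM, so that in both groups some mice lay within the 0 h range. At 3 d it was 2.004, 12.9 and 8.33 CPM, below every 0 h mouse. The 6 mice at 7 d lay between 6.47 and 24.0 CPM (median 17.8), and 5 of them were below every 0 h mouse. At 14 d the level was 2.119, 8.66 and 3.86 CPM, and at 21 d 5.37, 5.05 and 6.69 CPM, again below every mouse at 0 h. The mean was 101 ± 105 CPM at 0 h (SD, n = 3), 7.76 ± 5.49 at 3 d (n = 3), 16.5 ± 6.33 at 7 d (n = 6), 4.88 ± 3.39 at 14 d (n = 3) and 5.70 ± 0.871 at 21 d (n = 3).

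Hbb-bt, the other adult beta globin gene, was lower than its partner in every mouse but 1 and was at 0 counts in 7 of 30. Its level was 7.63 to 38.7 CPM at 0 h, 4.22 to 31.5 CPM at 6 h and 0 to 1.14 CPM at 3 d. At 7 d, 3 mice were at 0 and mouse 2 reached 17.3 CPM, the library in which Hbb-bt (66.1 TPM) was above Hbb-bs (63.9 TPM). TPM is corrected for transcript length and is used for comparisons between genes. All 3 mice at 3 h, 3 d, 14 d and 21 d were below the lowest 0 h mouse.

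**Figure D1:**
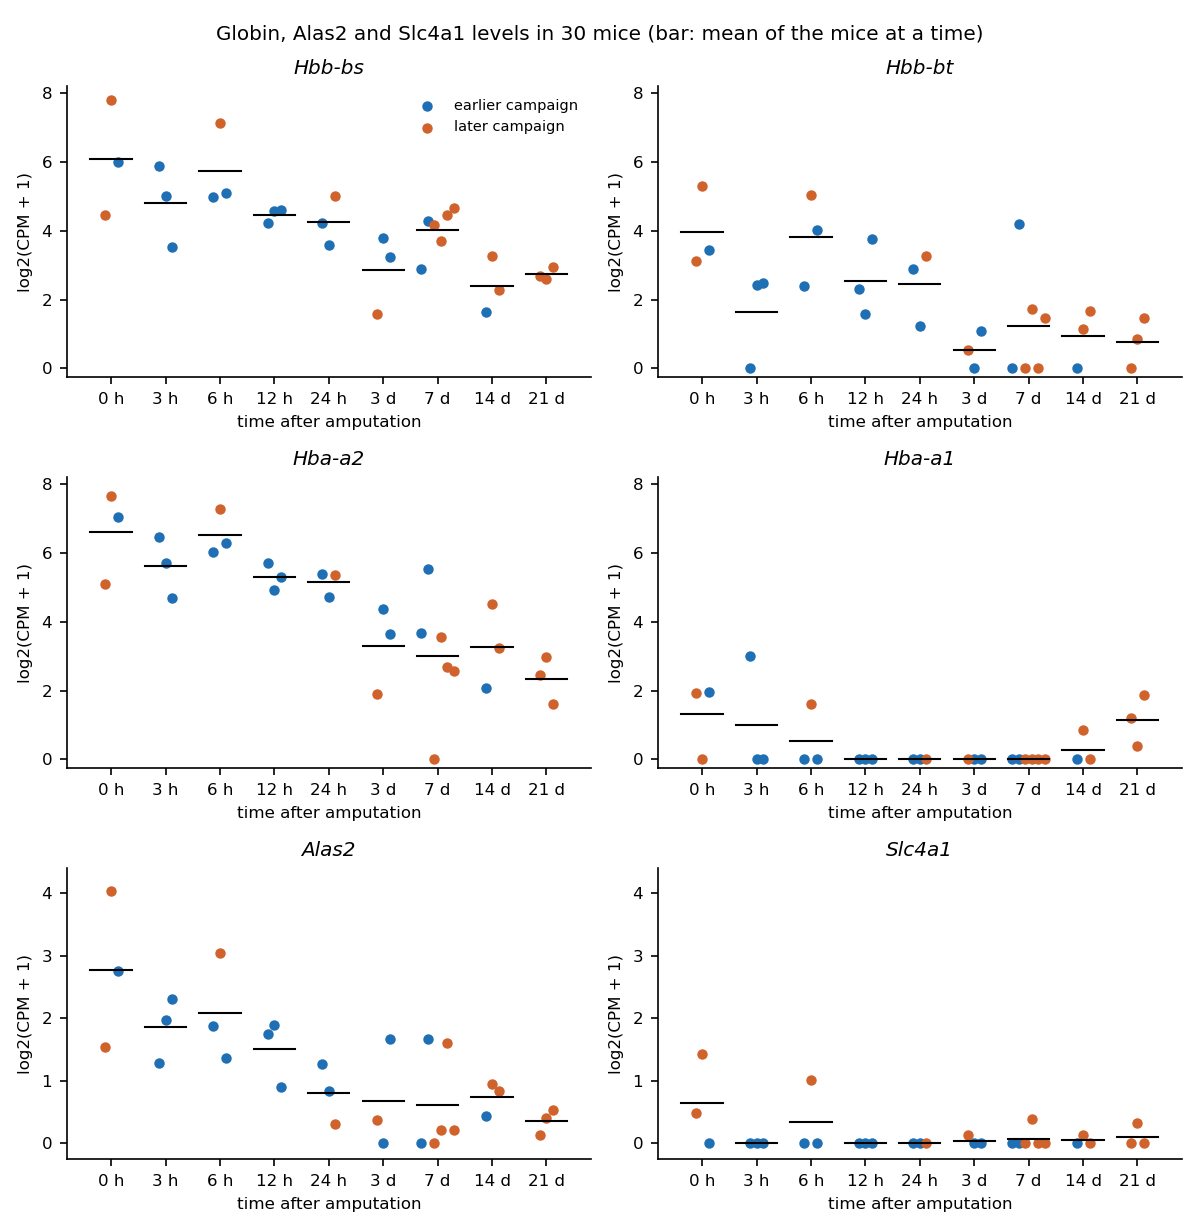
Level of each gene, as log2(CPM + 1), in each of the 30 mice (points, coloured by campaign) over the 9 time points, with a bar at the mean of the mice of a time. Hbb-bs, Hba-a2 and Alas2 were highest at 0 h in mouse 2, Hba-a1 was at 0 in 22 mice and Slc4a1 in 23, and the bottom panels have a smaller scale.

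Of the alpha globin genes, Hba-a2 held nearly all reads and followed a course like that of Hbb-bs. It had 32.9, 201 and 130.3 CPM at 0 h, 86.5, 51.6 and 24.6 CPM at 3 h, and 63.5, 155 and 76.5 CPM at 6 h. These 3 groups overlapped. At 12 h it had 51.0, 29.2 and 38.1 CPM, and at 24 h 40.8, 25.2 and 40.2 CPM, close to the lowest 0 h mouse. At 3 d it had 2.75, 19.7 and 11.4 CPM, all below the 0 h mice. At 7 d the 6 mice ranged from 0 to 45.6 CPM (median 8.09), with mouse 2 the highest and mouse 3 at 0. At 14 d it had 3.18, 21.9 and 8.49 CPM, and at 21 d 4.46, 6.91 and 2.03 CPM, again below every 0 h mouse. Hba-a1 was at 0 counts in 22 of 30 mice and reached 35.6 counts at most, and given the near-identical sequences shown above no fold change is given for it.

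Alas2 (chrX:150547375-150570638, plus strand, 11 exons) was a low gene, with 457 counts over all libraries, of which 44.6% were in the 0 h mice and 31.5% in mouse 2 at 0 h alone. At 0 h it had 24, 144 and 36 counts, or 1.92, 15.3 and 5.76 CPM. At 3 h it had 1.43, 2.90 and 3.98 CPM, at 6 h 2.65, 7.19 and 1.57 CPM, and at 12 h 2.34, 2.72 and 0.859 CPM. Each of these groups overlapped 0 h. At 24 h, with 1.40, 0.784 and 0.234 CPM, all 3 mice were below the lowest 0 h mouse. From 3 d to 21 d no library held more than 16 counts, but mouse 3 at 3 d and mice 2 and 5 at 7 d, with 2.19, 2.19 and 2.05 CPM, overlapped the lowest 0 h mouse. The mean level was 0.290 ± 0.184 CPM at 21 d (SD, n = 3) against 7.68 ± 6.92 CPM at 0 h (n = 3). Against the globins, its level per length was small, 8.22 to 10.6 TPM per 1000 globin TPM at 0 h.

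Slc4a1 (chr11:102348824-102366203, minus strand, 20 exons), which encodes band 3, was close to the limit of detection, with 39 counts over all 30 libraries, and did not pass the filter on low counts. Mouse 2 at 0 h held 16 of them, mouse 2 at 6 h 10, mouse 1 at 0 h 5 and mouse 2 at 21 d 4. Mouse 4 at 7 d held 2, and mouse 1 at 3 d and mouse 2 at 14 d held 1 each. These 7 mice were all from the later campaign, in which 14 mice had a median total of 9836324 counts against 5083528 in the earlier one. The part of depth or campaign in this was not tested.

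Tested against 0 h, no globin gene was called at the times up to 24 h, Hbb-bs was lower at 3 d, 7 d and 14 d, and Hba-a2 was lower at 7 d and 14 d. Of the 6 genes, 5 passed the filter on low counts and entered edgeR's quasi-likelihood fit of all 30 mice, with Benjamini-Hochberg adjustment over 13793 genes. No member was called at 3 h (0.254% of all genes called), 6 h (0.189%), 12 h (0.167%) or 24 h (0.493%). At an unadjusted p under 0.05 the number of members was 1, 0, 2 and 4, and DESeq2 called 0 at each of these times (1, 0, 1 and 2 unadjusted). Estimates for Hbb-bs, Hbb-bt, Hba-a2 and Alas2 were below 0 at each of these times, with those at 6 h closest to 0. At 24 h the log2 fold change was -2.37 (SE 0.71, adjusted p = 0.185, edgeR) for Hbb-bs and -3.18 (SE 1.16, adjusted p = 0.328, edgeR) for Alas2. All comparisons share the 3 mice at 0 h, so that they are not independent of each other.

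At 3 d, 1 of the 5 members was lower (0.0653% of all genes), namely Hbb-bs, by a log2 fold change of -3.82 (SE 0.78, edgeR adjusted p = 0.0129). Hba-a2 had -3.51 (SE 0.93, edgeR adjusted p = 0.0931). At 7 d, 2 members were lower (0.66% of all genes). Hbb-bs had -2.61 (SE 0.56, edgeR adjusted p = 0.00797) and Hba-a2 -3.22 (SE 0.70, edgeR adjusted p = 0.00837), and in both genes 5 of 6 mice were below every 0 h mouse. Alas2 stayed just above the threshold, with -3.24 (SE 0.90, edgeR adjusted p = 0.0509), while DESeq2 called it (adjusted p = 0.0132), as did edgeR with the campaign as a covariate (adjusted p = 0.0382). Without the left-foot mice Alas2 had -2.34 (edgeR adjusted p = 0.255). At 14 d, 2 members were lower (0.131% of all genes). Hbb-bs had -4.34 (SE 0.78, edgeR adjusted p = 0.00147) and Hba-a2 -3.41 (SE 0.90, edgeR adjusted p = 0.0462), with 3 of 3 mice below every 0 h mouse in both. Alas2 (-3.41, edgeR adjusted p = 0.195) and Hbb-bt (-3.88, edgeR adjusted p = 0.266) had estimates of similar size with larger errors. Over all genes tested, the median log2 fold change was -0.0105 at 7 d and -0.0039 at 14 d.

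**Figure D2:**
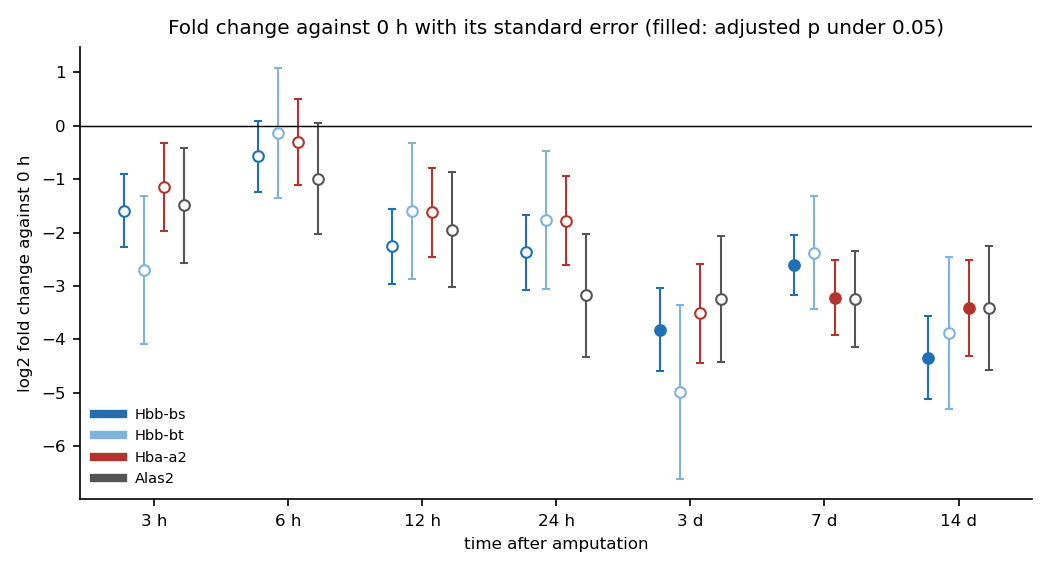
Log2 fold change against 0 h of Hbb-bs, Hbb-bt, Hba-a2 and Alas2 at 3 h to 14 d, with bars of 1 standard error and filled points where edgeR's adjusted p was under 0.05. The filled points are Hbb-bs at 3 d, 7 d and 14 d and Hba-a2 at 7 d and 14 d, and the estimates at 6 h lie closest to 0.

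The calls depended on single mice. Without mouse 2 at 0 h, Hbb-bs was no longer called at 3 d (log2 fold change -2.50, edgeR adjusted p = 0.251) or at 7 d (-1.30, edgeR adjusted p = 0.392), and no member was called at either time. At 14 d, Hbb-bs remained called in each of the 30 fits that left out 1 mouse, from -5.02 to -3.05 (edgeR adjusted p = 0.000595 to 0.0270). Hba-a2 at 14 d was called in 13 of those fits and lost in 17, of which 4 left out a mouse of the times compared (mice 2 and 3 at 0 h, mice 1 and 3 at 14 d). Without mouse 2 at 0 h, Hba-a2 had -2.62 at 7 d (edgeR adjusted p = 0.09996) and -2.83 at 14 d (edgeR adjusted p = 0.229). Without the same mouse Alas2 had -2.17 at 24 h (edgeR adjusted p = 0.948), -2.22 at 7 d (edgeR adjusted p = 0.444) and -2.40 at 14 d (edgeR adjusted p = 0.850), and Hbb-bs had -1.09 at 24 h (edgeR adjusted p = 0.967). At 3 d, the call of Hbb-bs was also lost without mouse 1 or mouse 3 at 3 d. At 6 h the sign itself rested on mouse 2 at 0 h, without which Hbb-bs had a log2 fold change of 0.71.

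With the campaign as a covariate, Hbb-bs had -2.57 at 7 d (edgeR adjusted p = 0.00282) and -4.39 at 14 d (edgeR adjusted p = 0.000278). Within campaigns, on the log2(CPM + 1) scale, the difference of Hbb-bs from 0 h at 7 d was -2.40 in the earlier campaign (2 mice against 1) and -1.88 in the later one (4 against 2), and at 14 d it was -4.35 (1 against 1) and -3.35 (2 against 2). For Hba-a2 the differences at 7 d were -2.44 and -4.17, and at 14 d -4.97 and -2.49. Directions were thus the same in both campaigns at these times, whereas at 6 h Hbb-bs differed by -0.95 in the earlier (2 against 1) and by 1.008 in the later campaign (1 against 2). Summing the partners before the fit left the calls of both pairs in place, with -2.57 for the beta pair (edgeR adjusted p = 0.00790) and -3.24 for the alpha pair (edgeR adjusted p = 0.00704) at 7 d.

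No member was called between successive times. The share of all genes called was 0.16% for 6 h against 3 h, 0.0% for 12 h against 6 h, 0.0% for 24 h against 12 h, 0.0653% for 3 d against 24 h, 0.0145% for 7 d against 3 d and 0.435% for 14 d against 7 d. At an unadjusted p under 0.05 the numbers of members in these steps were 0, 1, 0, 0, 0 and 1 of 5, both by edgeR and by DESeq2, which also called 0. Hbb-bs accounted for both in edgeR, with a log2 fold change of -1.68 from 6 h to 12 h (edgeR adjusted p = 0.690) and -1.74 from 7 d to 14 d (edgeR adjusted p = 0.278). As a description, the log2 difference of 21 d from 0 h was -4.15 for Hbb-bs, -4.47 for Hbb-bt, -4.73 for Hba-a2 and -4.66 for Alas2, with every 21 d mouse below every 0 h mouse. This is the contrast that chose the genes, in which 0.21% of all genes and 3 of the 5 members (Hbb-bs, Hba-a2 and Alas2) were called lower. Over the 9 time points, 9.01% of all genes and the same 3 members were called, and nothing is read from either count.

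The share of beta in the globin RNA varied between mice. The summed level of the 4 globin genes was 217 to 1506 TPM at 0 h and 33.0 to 43.9 TPM at 21 d. In the 15 mice up to 24 h, the beta genes made up 23.5% to 47.9% of it (median 31.6%). From 3 d on, 4 of 15 mice had more beta than alpha, all of them from the later campaign. They were mice 3, 5 and 6 at 7 d, with beta shares of 100%, 73.2% and 78.8%, and mouse 3 at 21 d with 59.6%. Mice 3 and 6 at 7 d were left-foot mice, as was mouse 4 at 7 d with 48.9%, while the others were right foot. The part of foot or campaign was not tested. In the earlier campaign the beta shares at 7 d were 28.1% and 36.8%. Mouse 3 at 7 d held 92 counts of Hbb-bs and none of Hbb-bt, Hba-a1, Hba-a2, Alas2 or Slc4a1. Its library had 12199 genes with a count, the fewest of all libraries. At its depth a count of 0 allows up to 3 counts of each. These ratios were not tested, and with 42 and 31 counts of Hba-a2 in mice 5 and 6 they rest on few reads.

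**Figure D3:**
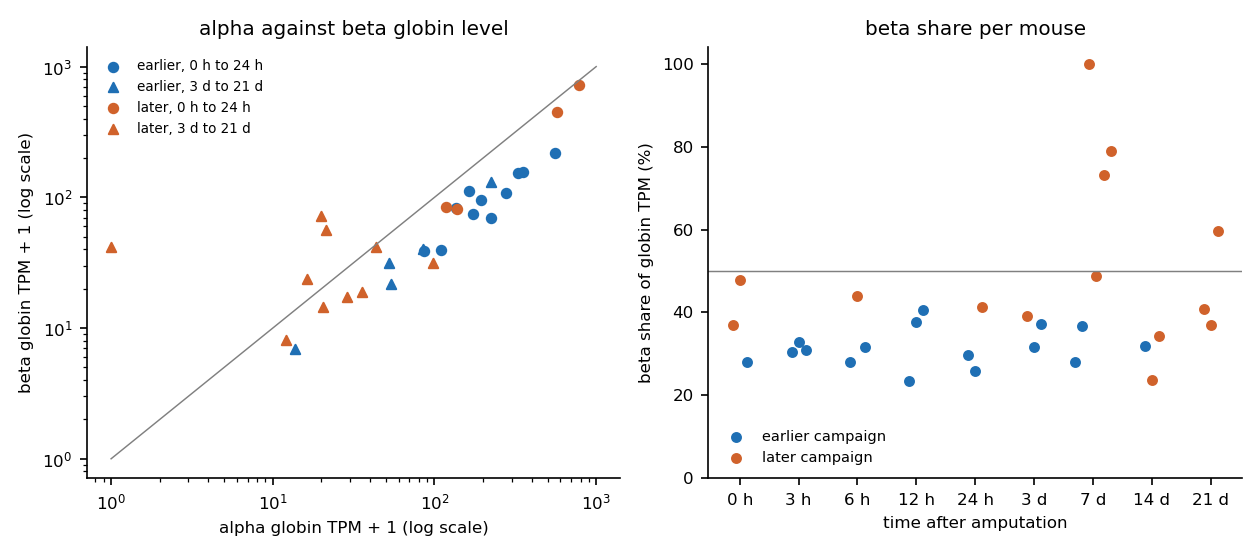
Beta against alpha globin level of each mouse in TPM + 1 on log scales with the line of equal levels (left), and beta share of globin TPM in percent per mouse and time with a line at 50% (right). The 4 mice above the line are from the later campaign, 3 at 7 d and 1 at 21 d.

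Of the list of 15 erythroid regulators and early surface genes, 5 were high enough to be tested and the others were low or absent. Hemgn and Zfpm1 had counts in all 30 mice and Tal1 in 26. Hemgn, which encodes the erythroid nuclear protein hemogen, had 3.52 to 4.04 CPM at 0 h and 3.49 to 4.19 CPM at 21 d, so that these groups overlapped, and edgeR did not call it over time (adjusted p = 0.446). The regulators Gata1 and Klf1 and the erythropoietin receptor gene Epor were at or near 0. Gata1 had 0 counts in all 30 libraries, which over 215296400 counts in all allows a level of up to 0.0139 CPM. Klf1 reached at most 2 counts in a library, and Epor reached 8 in mouse 3 at 24 h. Mouse 2 at 0 h had 4319 globin counts and mouse 2 at 6 h 3233, and both had 0 counts of these 3 genes together, while Slc4a1 had 16 and 10 counts there. In the other mice the 3 genes summed to between 0 and 8 counts. Such counts limit the RNA of these 3 genes and do not give the number of precursors.

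The wider erythroid lists, which share no gene with the 6 members, did not follow the globins as a group. Of 56 genes in the table, 37 passed the filter on low counts and 3 were called over the time course by edgeR (9.01% of all genes called). Of the erythroid regulators and early surface genes, 5 of 15 were tested and 1 was called, the transferrin receptor Tfrc (edgeR adjusted p = 0.00113), which dividing cells of many types use to take up iron. Tfrc was higher at 7 d (1.68% of all genes called higher), from 181 ± 49.8 CPM at 0 h (SD, n = 3) to 314 ± 109 CPM (n = 6), a log2 fold change of 0.79 (SE 0.22, edgeR adjusted p = 0.0443). Of the late erythroid and reticulocyte genes, 11 of 14 were tested and 2 were called over time, Bpgm (edgeR adjusted p = 0.0294) and Fam210b (edgeR adjusted p = 0.0351). Fam210b had 27.6 ± 0.585 CPM at 0 h (SD, n = 3) and 19.7 ± 1.75 CPM at 7 d (n = 6). Bpgm, the enzyme that makes the hemoglobin ligand bisphosphoglycerate in red cells, had 50.1 ± 6.21 CPM at 0 h and 86.9 ± 25.9 CPM at 21 d (SD, n = 3 each). Neither was called at 21 d against 0 h. None of the 9 tested genes of the red cell membrane list (1 at an unadjusted p under 0.05) and none of the 12 heme synthesis genes other than Alas2 (3 unadjusted) were called by edgeR. The median log2 difference at 21 d was 0.03 for the regulators, 0.13 for the late genes, -0.39 for the membrane list and -0.03 for heme synthesis, against -0.0044 over all genes. With DESeq2, 5 of the 37 were called.

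**Figure D4:**
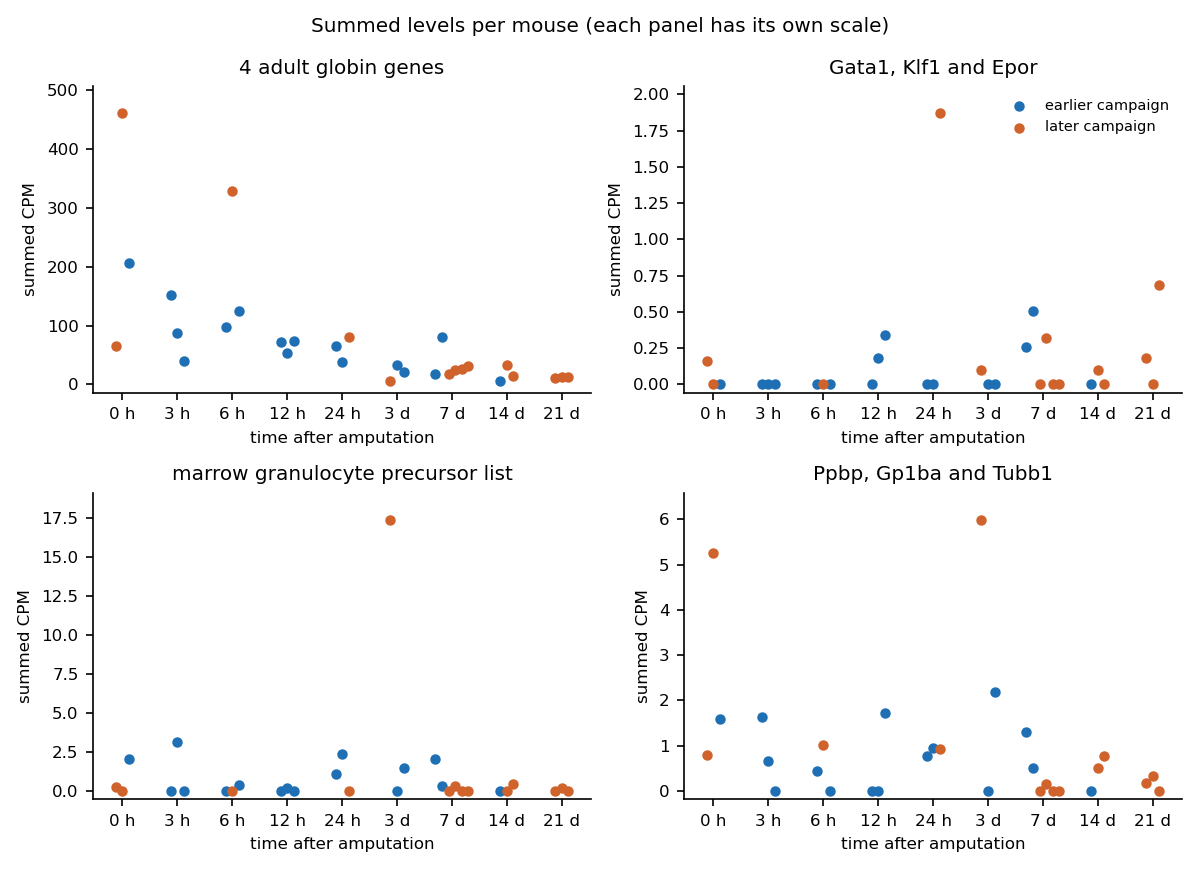
Summed CPM per mouse of the 4 globin genes, of Gata1, Klf1 and Epor, of the marrow granulocyte precursor list and of Ppbp, Gp1ba and Tubb1, by time and campaign, each panel on its own linear scale. Globin sums were highest in mouse 2 at 0 h (460.4 CPM) and mouse 2 at 6 h (327.6 CPM). The granulocyte precursor list and these 3 platelet genes were highest in mouse 1 at 3 d. That mouse had the lowest globin sum of all, 5.21 CPM.

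Lists for marrow and blood cells other than red cells were mostly too low to be tested. In the granulocyte precursor list none of 7 genes passed the filter, and its sum was 0 to 3.13 CPM in 29 mice and 17.4 CPM in mouse 1 at 3 d. That mouse held 127 of the 153 counts of Mpo (myeloperoxidase) and all 25 of Elane (neutrophil elastase), beside 20.4 counts of Hbb-bs and 28 of Hba-a2. From the erythroid regulator list, Rhag (12.5 of 66.6 counts), Gfi1b (4 of 6) and Trim10 (5 of 19) were also highest there. The other genes of that list with any count were highest in other mice, and Gata1, Klf1 and Epor had 0, 0 and 1 counts in mouse 1 at 3 d. These counts are few and were not tested. The platelet genes Ppbp, Gp1ba and Tubb1 of the same mouse summed to 61 counts, the most of any mouse. Mouse 2 at 0 h followed with 49.4 counts of these 3 genes. Their sum was 0.80 to 5.26 CPM at 0 h and 0 to 0.322 CPM at 21 d. Every 21 d mouse was thus below every 0 h mouse. Gp1ba and Tubb1 were named after their values were seen. The sum of all 12 listed platelet genes overlapped, with 58.3 to 81.25 CPM at 0 h and 53.9 to 85.3 CPM at 21 d. Of those tested, the mean was higher at 21 d than at 0 h for Gp5 (1.25 against 0.418 CPM) and Itgb3 (36.9 against 28.6 CPM). It was lower for Gp1bb (18.1 against 21.2 CPM), Itga2b (6.09 against 8.55 CPM) and Pf4. Ppbp had 1.03 ± 0.695 CPM at 0 h and 0.169 ± 0.162 CPM at 21 d, and Tubb1 had 1.05 ± 0.879 CPM at 0 h (SD, n = 3 each) and 0 in all mice at 21 d. Ppbp, Gp1ba and Tubb1 did not pass the filter, so their difference was not tested. The platelet factor gene Pf4, also made by macrophages, had 7.19 ± 1.36 CPM at 0 h and 5.25 ± 1.39 CPM at 21 d (SD, n = 3 each) and was not called over time (edgeR adjusted p = 0.984). Of 5 platelet genes tested only Itgb3 was called by edgeR (2 unadjusted), an integrin that osteoclasts also carry, with a log2 fold change of 2.94 at 7 d (SE 0.34, edgeR adjusted p = 6.39e-06). None of the 9 B cell precursor genes was tested, with Cd79a at 43 counts, all of them at 0 h to 24 h, and Vpreb3 at 1 count in all. The list as a whole did not share the course of Cd79a, with sums of 0.4 to 1.76 CPM at 0 h and 0.57 to 1.80 CPM at 21 d. Of 8 lymphocyte genes 2 were tested and 0 called by edgeR (0 unadjusted).

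Of the mature neutrophil genes, 3 of 6 tested were higher at 7 d (1.68% of all genes), namely S100a8, S100a9 and the gelatinase gene Mmp9, which osteoclasts also express. Csf3r (edgeR adjusted p = 0.0708) and Retnlg (edgeR adjusted p = 0.558) did not pass, and Cxcr2 had a log2 fold change of -0.33 (edgeR adjusted p = 0.829). S100a8, a calgranulin subunit, went from 0.0711 ± 0.123 CPM at 0 h (SD, n = 3) to 12.7 ± 10.6 CPM (n = 6, edgeR adjusted p = 0.00109). S100a9, the other subunit, went from 0.720 ± 0.0802 to 94.8 ± 38.9 CPM (edgeR adjusted p = 7.39e-05) and Mmp9 from 12.8 ± 9.88 to 1142 ± 499 CPM (edgeR adjusted p = 1.43e-07). The number of higher genes was also 3 at 14 d (1.48% of all genes) and at 21 d (1.73% of all genes), where S100a8 had 10.8 ± 11.1 CPM (n = 3, edgeR adjusted p = 0.00214). Of 9 tested genes for heme and hemoglobin clearance, 2 were called over time. Cd163, the macrophage receptor that takes up hemoglobin bound to haptoglobin, fell from 32.2 ± 11.1 CPM at 0 h to 4.87 ± 2.62 CPM at 21 d (SD, n = 3 each), a log2 fold change of -2.74 (SE 0.60, edgeR adjusted p = 0.00976). Ftl1, the light chain of the iron store ferritin, rose over the same interval by 1.03 on the log2 scale (SE 0.25, edgeR adjusted p = 0.0255). Hmox1, which breaks down heme, had 0.64 (SE 0.28, edgeR adjusted p = 0.423). For the tissue itself, 2 of 6 endothelial genes (Cdh5 and Vwf), 0 of 6 keratinocyte genes (3 unadjusted) and 5 of 6 osteoblast and osteocyte genes were called over time by edgeR. Of the bone genes, Col1a1, Ibsp and Sp7 were higher at 21 d, by 3.20, 4.37 and 2.73 on the log2 scale (edgeR adjusted p = 1.015e-05, 1.015e-05 and 0.000309), whereas Bglap had -1.03 (edgeR adjusted p = 0.955). Cdh5, the cadherin of vessel walls, was higher at 7 d by 1.54 (SE 0.33, edgeR adjusted p = 0.00721).

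The embryonic globin genes Hbb-y, Hbb-bh1, Hbb-bh2 and Hba-x had 0 counts in all libraries. Of the list of other globins, 1 of 9 was tested, cytoglobin (Cygb), a globin of fibroblasts, which edgeR did not call over time (adjusted p = 0.199, unadjusted p = 0.0465). The myoglobin gene Mb of muscle had 94 counts in all, 49 of them in mouse 2 at 0 h, the mouse with the most globin RNA, and its part in the levels there was not tested.

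Genes were also ranked by how closely they followed Hbb-bs among mice of the same time. Pearson's r was taken on log2(CPM + 1) after subtracting the mean of each time point, over 30 mice, as a description, and the points share library and depth. The 10 non-member genes most alike to Hbb-bs had r from 0.60 to 0.72 and were led by Tnnt3, a troponin of fast skeletal muscle (0.72). They included Zbed4 (0.67), Scara5, Hpgds, Rpa3, Smug1, C1qtnf7, Ccdc80 and Hectd3. Tnnt3 was highest in mouse 2 at 0 h, with 140 counts, and without mouse 2 at 0 h and mouse 2 at 6 h its r was 0.60. Of the members, Hba-a2 ranked 50 of 13792 genes with r = 0.50, Alas2 163 with r = 0.43 and Hbb-bt 867 with r = 0.30. Without these 2 mice, which had the most globin RNA, r was 0.43, 0.11 and 0.07. The gene most alike to Alas2 was Pdha1, a subunit of pyruvate dehydrogenase (0.62), followed by Pygm, the glycogen phosphorylase of muscle (0.62), and then by Sp100, Ndufs1, Afm, Ankrd24, Nfasc, Phlda2, E2f8 and Brip1. Without the subtraction of means, 2 of the 10 genes for Hbb-bs and 0 of the 10 for Alas2 were shared. With a pseudocount of 0.1 in place of 1, 10 of 10 genes were shared for Hbb-bs and 3 of 10 for Alas2.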

How the data were processed

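RNA from 30 digit tips was sequenced as 65-base single-end poly(A) libraries. The authors mapped the reads to Ensembl 75 mouse genes with Bowtie 0.12.8, allowing 2 mismatches and at most 200 hits, and estimated with RSEM 1.2.3 the expected counts (not normalized) and TPM per gene and mouse that they deposited. Another deposited table holds the authors' means per time point and was not used. Expected counts, 78.1% of them whole, were rounded. Tests used edgeR 4.0.16 (TMM, filterByExpr by time point, quasi-likelihood) in R 4.3.3, in 1 fit of all 30 mice without covariates, with Benjamini-Hochberg adjustment at 0.05. The filter kept 13793 of 20321 genes, which hold 99.9% of the counts. DESeq2 1.42.0 was an alternative. CPM used these library sizes and TMM factors. Tables and plots were made in Python 3.11.15 with pandas 2.3.3 and matplotlib 3.10.9.

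The members and the 14 marker lists were chosen with earlier results of these data known. Named genes were the 6 members, from each list the genes called over time or at 21 d (up to 4, otherwise the 4 of highest mean TPM), fixed defining markers, and the 10 genes most alike to Hbb-bs and to Alas2. Mb, Hemgn, Zfpm1, Tal1, Rhag, Gfi1b, Trim10, Csf3r, Retnlg, Cxcr2, Gp1ba, Tubb1, Cygb and the embryonic globins were named after their values were seen. Some genes that this rule selects are not reported here, so the values given do not cover the whole marker set or rank. Of the 6 members, 5 matched a RefSeq promoter, and Slc4a1 did not. In simulated counts with 13460 genes, changes were placed only at 7 d, the time with 6 mice. For 7 d against 0 h the fit recovered 93.9% of the 4-fold changes and 54.2% of the 2-fold changes, with 3.36% of calls false. The simulated spread was set from the mean count of each gene and not estimated from the data. These rates therefore do not give the chance of a call for the members or at times with 3 mice. Mice are numbered in accession order within a time point. All 39 pairs of mice at the same time differed beyond sampling noise (chi-square per degree of freedom 9.84 to 97.0).  The p-values measure the spread between libraries and count mouse 3 at 0 h and mouse 2 at 12 h, which share a tag, as separate animals. Libraries were amplified by PCR without molecular identifiers named, so limits from counts cover counting error only.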

Additional observations from a re-analysis of the deposited data

Results flagged for a closer look

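Of 7 measures examined over the 6 mice at 7 d, 4 held 1 mouse far from the others. The rate of about 1 in 20 groups flagged by chance cannot be set against this number. A single mouse with any count among mice at 0 is always flagged, as for Slc4a1. The measures also overlap, since Hbb-bt and Hba-a2 were flagged for the same mouse. The gap to the nearest mouse, as a share of the whole range, was 0.865 for Hbb-bt, where mouse 2 had 17.3 CPM, and 0.744 for Hba-a2, where the same mouse had 45.6 CPM. It was 1.0 for Slc4a1, where mouse 4 had 0.317 CPM from 2 counts and the others 0. For Alas2 per 1000 globin TPM it was 0.703, with 29.0 in mouse 5 from 16 counts of Alas2. Mouse 2 at 7 d was from the earlier campaign and mice 4 and 5 from the later one. Without mouse 2, 4 members in place of 2 were called lower at 7 d.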

How the results depend on the processing

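Of the 5 members tested, 1 was called lower at 3 d, 2 at 7 d and 2 at 14 d. With the campaign as a covariate, and without the left-foot mice, the number was 2 at 3 d, and without the left-foot mice it was 1 at 7 d, where Hba-a2 had a log2 fold change of -2.51 (edgeR adjusted p = 0.0637). Leaving out each mouse in turn gave 0 to 2 members at 3 d (0 without mouse 2 at 0 h or mouse 1 or 3 at 3 d, 2 without mouse 2 or 3 at 7 d), 0 to 4 at 7 d (0 without mouse 2 at 0 h, 4 without mouse 2 at 7 d) and 1 to 2 at 14 d. Of the erythroid list genes, 3 were called over time, 5 with DESeq2 and 1 to 4 leaving out each mouse (1 without mouse 3 at 6 h or mouse 1 or 2 at 21 d). At the other times and steps the number was 0 under every alternative run. At 6 h against 0 h, leaving out each mouse gave log2 fold changes of -1.66 to 0.71 for Hbb-bs, -0.79 to 0.28 for Hba-a2, -1.84 to 0.0189 for Alas2 and -0.95 to 0.98 for Hbb-bt, the upper ends without mouse 2 at 0 h, and 0.33 for Hbb-bt without mouse 1 at 6 h. The cause was not tested. Size factors of DESeq2, library sizes without the members, no filter and summed partners changed no direction of these 4 genes against 0 h. Leaving out the 2 mice richest in globin RNA in the ranks was chosen after seeing the data. No paired analysis was possible because the labels give no replicate numbers, and only 1 mouse tag with its date recurs between time points. Depth limits Alas2, Slc4a1, Hba-a1 and the precursor markers to a few counts per mouse.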
